A study of Bos taurus with 5 samples.

Results

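The genes described are those of the centrosome and the centriole, 56 of the 27607 genes in a deposited table of RNA levels in early cattle embryos (Bos taurus). They were taken by name: 37 symbols that begin with CEP and a number, and 19 of 20 further listed names. The name CPAP is absent from the table, which carries that gene under its older symbol CENPJ. Of the 56, 54 reached an RPKM (reads per kilobase of gene and per 1000000 reads counted in genes) of at least 1 in at least 2 pools and entered the test. Embryos sired by low-performing bulls formed 2 pools, called LP1 and LP2, and embryos sired by high-performing bulls formed 3 pools, called HP1, HP2 and HP3. Every pool held 100 in vitro embryos, labelled as 4-cell, while the submitters' design note speaks of the 2 to 4 cell stage. The labels define neither performance nor bulls per pool, and recombinant Wnt5A appears in the treatment protocol of all 5 pools alike. Nothing in the labels ties a pool to its own bull or fertilisation, so p-values cover just pool-to-pool spread, part or all of which could be technical.

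The centrosome is the main organiser of microtubules in animal cells. A pair of centrioles sits at its core, surrounded by a protein matrix, the pericentriolar material, that holds gamma-tubulin rings from which microtubules grow. The egg loses its centrioles while it grows, and in cattle, as in most mammals other than rodents, the sperm brings the centrioles that organise the first divisions. The proteins recruited around them come largely from the egg, whose stored mRNAs still make up most of the RNA at the cleavage stages sampled here.

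Across the members, the sire-group difference ran in both directions. The large scaffold genes AKAP9 and CEP192, the duplication genes STIL and CEP295, the centriole gene POC1B and the cilium-base gene CEP162 were lower in both low-performing pools than in every high-performing pool. The centrins CETN2 and CETN3, gamma-tubulin TUBG1, the distal-appendage gene CEP89 and the splicing gene CENATAC were higher in both. None of the 54 passed limma at a Benjamini-Hochberg adjusted p under 0.05, and 0% of the 12448 genes tested did. The smallest adjusted p was 0.0829. At an unadjusted p under 0.05, 14 members were lower, against 15.9% of all genes tested, and 5 were higher, against 19% of all genes. Those counts are 25.9% and 9.26% of the 54 members. Fold changes are given as low-performing minus high-performing means of log2(RPKM + 1). Their median over the members was -0.18, against -0.031 over all genes tested. RPKM is relative to all reads in genes of a pool, so it measures neither cell number nor total RNA. In pools of whole embryos, fewer cells with a transcript and less of it per cell cannot be told apart.

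Without LP1, 28 of the 54 members passed limma at an adjusted p under 0.05, 23 of them lower and 5 higher, which is 51.9% of the members. In that fit LP2 was the lone low-performing pool, assumed to vary like the others, and 43.6% of all genes passed. The member count stayed at 0 without HP1, HP2 or HP3, and 0% of all genes passed in those fits. At an unadjusted p under 0.05, the higher count was 1 without HP2 and 1 without HP3. No share of all genes is given for that cut in these fits. For the 5 members higher at that cut with all pools, the log2 fold change ran from 0.44 (TUBG1) to 0.94 (CETN3). Without LP2 it ran from 0.22 (TUBG1) to 0.73 (CETN3).

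The authors' deposited table, in which a positive fold change stands for higher RNA in low-performing pools, called 13 of the 56 members at a false discovery rate (FDR) under 0.05. Of these, 11 were lower in the authors' deposited table, 19.6% of the members, against 2.45% of all 27607 genes. The 2 that were higher in the authors' deposited table, CETN3 and CETN2, are 3.57% of the members, against 5.51% of all genes. Of the members 54 passed the RPKM filter, against 12448 of all 27607 genes, so these shares are of unlike sets. Lower values also went with gene length. Of all tested genes over 6000 bases, 67.0% were lower in both low-performing pools than in every high-performing pool. The smallest FDR in the authors' deposited table was 3.69e-04, for CEP162. AKAP9 had the most negative log2 fold change of any member there, -1.11, in the authors' deposited table.

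Levels were read as RPKM, which is per length and so can be set side by side between genes. CETN2 and CETN3, calcium-binding centrins of the centriole lumen, were the most abundant members, with means over all pools at ranks 173 and 187 of the 12448 genes tested. CEP57, a member of the ring around the parent centriole that recruits duplication factors, averaged 106 RPKM in the low-performing and 107 RPKM in the high-performing pools. Only these 3 members had a mean over all pools above 100 RPKM, and 14 members lay between 30 and 100 RPKM, 25 between 10 and 30 RPKM, and 12 between 1 and 10 RPKM. Large scaffold genes ranked from 41 (CEP192) to 49 (PCNT) among the 56 members by mean RPKM. Of all genes tested, 51.7% lay below CEP192 and 35.2% below PCNT. PCNT, which encodes pericentrin, averaged 5.31 RPKM in low-performing and 6.17 RPKM in high-performing pools. CETN1, the centrin gene best known from testis, was the lowest, with 16 and 18 reads in LP1 and LP2, against 20, 6 and 6 reads in HP1, HP2 and HP3. CEP126 was the other member below 1 RPKM in every pool. The median member had a mean of 19.9 RPKM, against 11.1 RPKM for all genes tested.

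**Figure D1:**
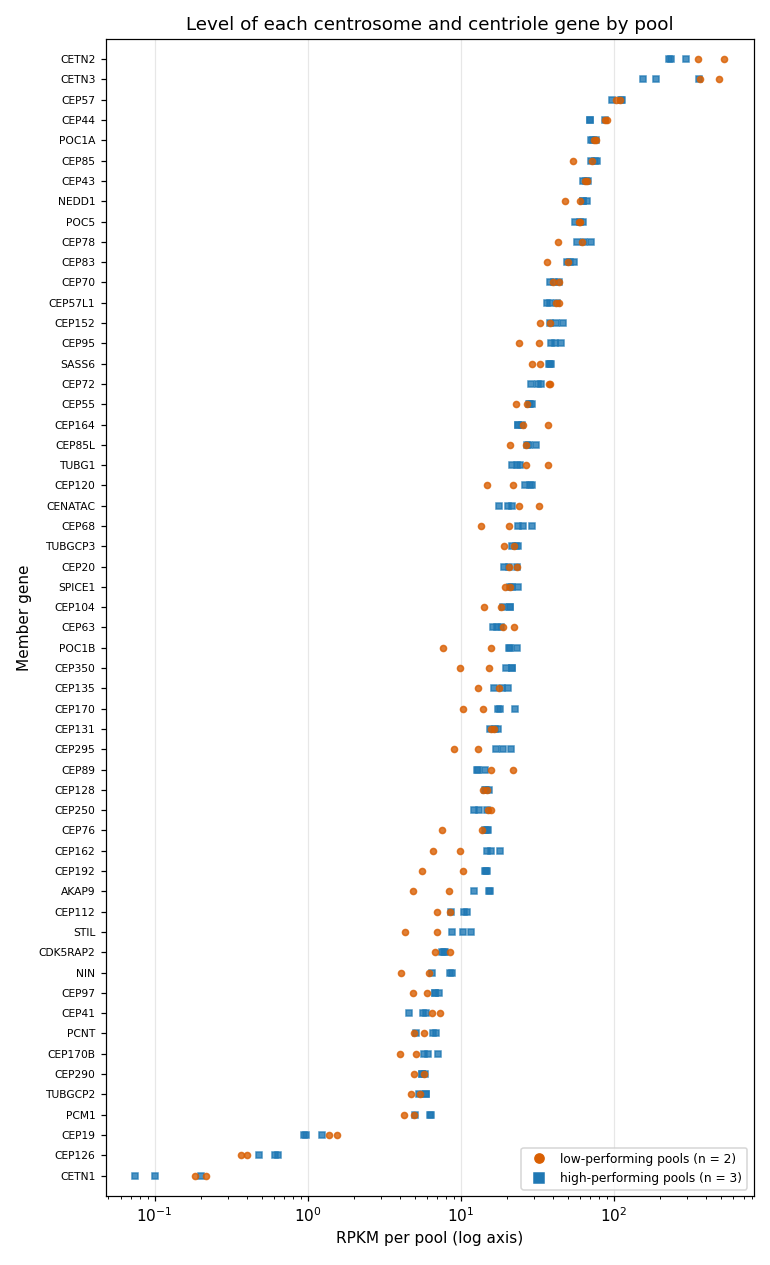
RPKM of all 56 members in each pool on a log axis, ordered by mean level, with circles for the 2 low-performing pools and squares for the 3 high-performing pools. CETN2 and CETN3 stand at the top and CETN1 at the bottom, and for AKAP9, CEP192, CEP162 and STIL both circles lie left of all squares.

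The 4 scaffold genes of the pericentriolar material all lay below 0, around a median log2 fold change of -0.52, but with each pool's trend over gene length removed 2 of 4 did, around -0.12. All 4 are longer than 6000 bases, a length at which all genes tested had a median of -0.32. With quantile normalization or a trimmed-mean factor 3 of the 4 lay below 0. AKAP9 (ENSBTAG00000007442, chromosome 4, positions 9333128 to 9455572; all positions are in ARS-UCD1.2) encodes a very large anchor for protein kinase A and gamma-tubulin complexes at the centrosome and Golgi. Its RPKM was 8.41 in LP1 and 4.84 in LP2, against 15.1, 15.5 and 12.2 in HP1, HP2 and HP3. Both low-performing pools lay below every high-performing pool, and the log2 fold change was -1.04 ± 0.22 (SE; limma, adjusted p = 0.0829).

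CEP192 (ENSBTAG00000013380, chromosome 24, positions 43219452 to 43293516) encodes the scaffold that brings mitotic kinases to the centrosome as it matures. It had 10.3 and 5.54 RPKM in LP1 and LP2, against 14.8, 14.5 and 14.3 RPKM in HP1, HP2 and HP3. The high-performing pools lay close together, LP1 was between them and LP2, and the log2 fold change was -0.85 ± 0.23 (SE; limma, adjusted p = 0.0829). The other two scaffold genes overlapped between groups. CDK5RAP2, which docks and activates gamma-tubulin rings, had 6.80 and 8.43 RPKM in LP1 and LP2, against 7.47, 7.84 and 7.73 RPKM in HP1, HP2 and HP3. LP1 was the lowest pool and LP2 the highest. PCNT had 5.72 and 4.90 RPKM in LP1 and LP2, against 6.83, 6.59 and 5.09 RPKM in HP1, HP2 and HP3.

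Ratios taken within a pool do not depend on a single scaling factor per pool. Quantile normalization or removal of the trend over length can still change them. CDK5RAP2, the denominator of several ratios here, was itself highest in LP2, which lowers the LP2 ratios. AKAP9 was at 1.24 and 0.574 times CDK5RAP2 in LP1 and LP2, against 2.03, 1.98 and 1.58 times in HP1, HP2 and HP3. For CEP192 over CDK5RAP2 the ratio was 1.52 and 0.656 in LP1 and LP2, against 1.98, 1.86 and 1.85 in HP1, HP2 and HP3. Other scaffold ratios overlapped between groups. PCNT was at 0.842 and 0.581 times CDK5RAP2 in LP1 and LP2, against 0.915, 0.841 and 0.658 times in HP1, HP2 and HP3. AKAP9 was at 0.814 and 0.875 times CEP192 in LP1 and LP2, against 1.02, 1.07 and 0.857 times in HP1, HP2 and HP3. All ratios in the text were chosen after values were seen and were not tested.

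Genes of the gamma-tubulin ring, the template for new microtubules, differed from one another. TUBG1, gamma-tubulin itself, had 26.8 and 36.9 RPKM in LP1 and LP2, against 23.2, 21.5 and 24.1 RPKM in HP1, HP2 and HP3. Both low-performing pools were above all high-performing pools, with a log2 fold change of 0.44 ± 0.16 (SE; limma, adjusted p = 0.113). NEDD1, which recruits the ring to the centrosome and spindle, was lower, at 59.7 and 47.5 RPKM in LP1 and LP2, against 66.2, 62.2 and 62.4 RPKM in HP1, HP2 and HP3. Its log2 fold change was -0.25 ± 0.14 (SE; limma, adjusted p = 0.241). TUBGCP2 and TUBGCP3, core subunits of the ring, overlapped between groups at log2 fold changes of -0.14 and -0.13. TUBG1 has a close copy in TUBG2, at 369 to 417 RPKM over the 5 pools. TUBG2 overlapped between groups, at a log2 fold change of 0.086 ± 0.14 (SE). Reads of such copies can be split between them.

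**Figure D2:**
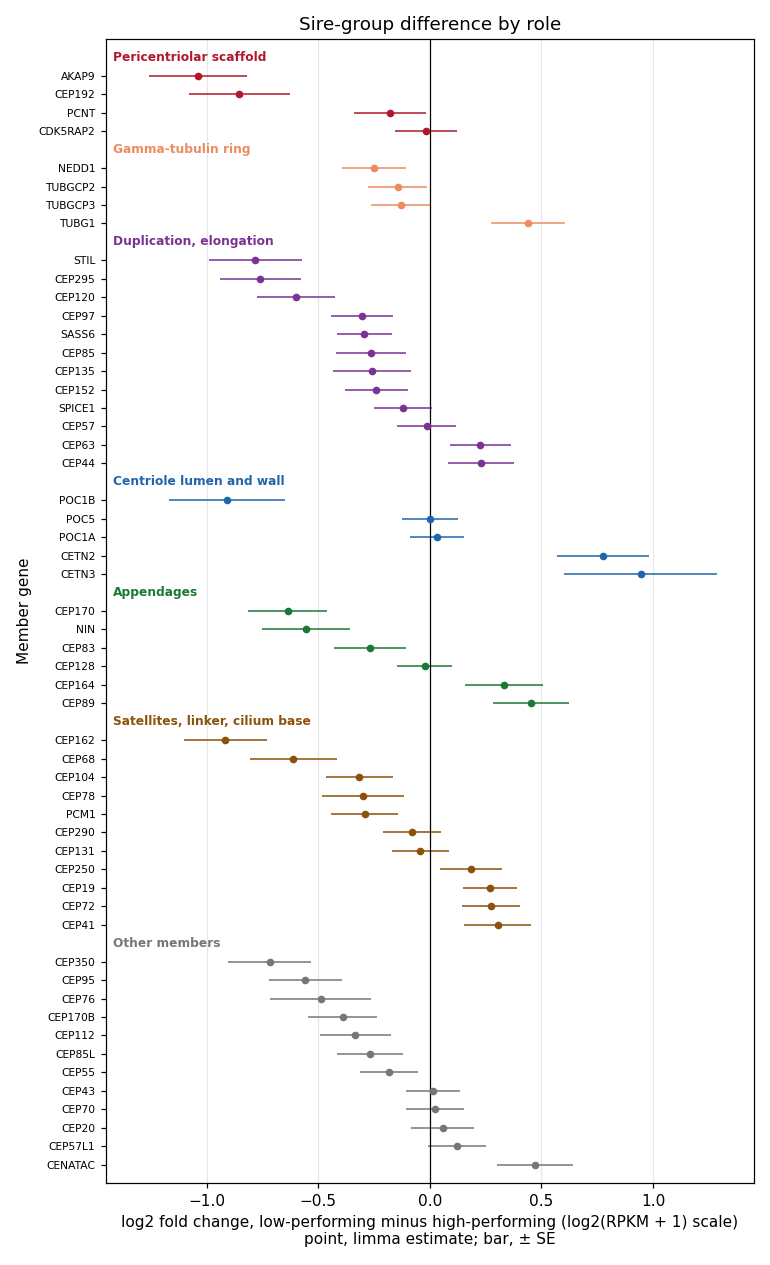
log2 fold change of the 54 tested members by role, low-performing minus high-performing, as limma estimates with SE bars. AKAP9 at -1.04 and CETN3 at 0.94 are the ends of the range, and every role group but the scaffold has members on both sides of 0; with the trend over length removed the scaffold has 2 on each side.

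Among the 12 genes of centriole duplication and elongation, 10 lay below 0, around a median log2 fold change of -0.26, against 53.3% of all genes tested below 0. Without overlap between groups, 6 of the 12 were lower, against 29.3% of all genes, and 2 were higher, against 29.4%. With the trend over length removed 8 of the 12 lay below 0, around -0.11. STIL (ENSBTAG00000017844, chromosome 3, positions 98940131 to 98990375) starts the new centriole together with the kinase PLK4. It had 6.99 and 4.28 RPKM in LP1 and LP2, against 10.4, 11.6 and 8.72 RPKM in HP1, HP2 and HP3, without overlap. The log2 fold change was -0.78 ± 0.21 (SE; limma, adjusted p = 0.0829). SASS6, the protein of the cartwheel that STIL helps to assemble, had 32.7 and 29.2 RPKM in LP1 and LP2, against 38.8, 38.1 and 37.4 RPKM in HP1, HP2 and HP3. It too was lower without overlap, by a smaller step, at -0.29 ± 0.12 (SE; limma, adjusted p = 0.143). STIL was at 0.214 and 0.147 times SASS6 in LP1 and LP2, against 0.267, 0.305 and 0.233 times in HP1, HP2 and HP3.

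CEP295 (ENSBTAG00000001902, chromosome 29, positions 1091859 to 1138116), needed for a new centriole to become a centrosome, had 12.9 and 9.02 RPKM in LP1 and LP2. In HP1, HP2 and HP3 it had 16.9, 21.3 and 18.9 RPKM, and the log2 fold change was -0.76 ± 0.18 (SE; limma, adjusted p = 0.0829). CEP120, which promotes centriole elongation, stood at -0.60 ± 0.18 (SE) on the same scale, and CEP97, part of the cap that limits centriole length, at -0.31 ± 0.14 (SE). CEP152, the docking protein for PLK4, had 38.1 and 32.9 RPKM in LP1 and LP2, against 46.2, 41.7 and 38.4 RPKM in HP1, HP2 and HP3. LP1 was just under HP3, and the log2 fold change was -0.24 ± 0.14 (SE; limma, adjusted p = 0.255).

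CEP63 and CEP44 were the 2 duplication members above 0. CEP63, a partner of CEP152, averaged 20.4 ± 2.32 RPKM (SD, n = 2) in low-performing and 17.3 ± 1.05 RPKM (SD, n = 3) in high-performing pools. CEP44, which binds the inner centriole wall, had 87.5 and 89.2 RPKM in LP1 and LP2, against 87.4, 69.7 and 69.9 RPKM in HP1, HP2 and HP3. HP1 was level with the low-performing pools, so that the absence of overlap rests on a small gap. CEP57 had 103 and 108 RPKM in LP1 and LP2, against 112, 111 and 97.5 RPKM in HP1, HP2 and HP3, an overlap on both sides.

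Among 5 tested genes of the centriole lumen and wall, 4 lay above 0 and POC1B below, while with quantile normalization POC1A and POC5 too lay below. CETN2 (ENSBTAG00000007844, chromosome X, positions 35129242 to 35133447) had 354 and 522 RPKM in LP1 and LP2, against 293, 230 and 234 RPKM in HP1, HP2 and HP3. All low-performing values were above all high-performing values, with a log2 fold change of 0.78 ± 0.21 (SE; limma, adjusted p = 0.0829). CETN3 (ENSBTAG00000014373, chromosome 7, positions 89936049 to 89953630) had 361 and 487 RPKM in LP1 and LP2, against 357, 154 and 187 RPKM in HP1, HP2 and HP3. LP1 exceeded HP1 by a few units only, while HP2 and HP3 were far lower. Its log2 fold change was 0.94 ± 0.34 (SE; limma, adjusted p = 0.109), with the largest SE of any member.

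Together CETN2 and CETN3 made up 34.1% and 44.4% of the members' summed RPKM in LP1 and LP2, against 30.5%, 21.0% and 23.0% in HP1, HP2 and HP3. The other 54 members summed to 1382 and 1263 RPKM in LP1 and LP2, against 1480, 1444 and 1409 RPKM in HP1, HP2 and HP3. So the summed RPKM of CETN2 and CETN3 was higher, and that of the others lower, in both low-performing pools. For the others LP1 was close to HP3. A sum weighs abundant genes most. Of all tested members, CETN2 and CETN3 included, 18 had a log2 fold change above 0 and 36 below. The ratio of CETN3 to CETN2 overlapped between groups, at 1.02 and 0.934 in LP1 and LP2, against 1.22, 0.669 and 0.798 in HP1, HP2 and HP3.

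POC1B (ENSBTAG00000000687, chromosome 5, positions 19295432 to 19400057) encodes a wall protein that keeps centrioles intact and is also found in the sperm's remodelled distal centriole. It had 15.7 and 7.62 RPKM in LP1 and LP2, against 20.5, 23.1 and 20.9 RPKM in HP1, HP2 and HP3. The groups did not overlap, LP2 was well under LP1, and the log2 fold change was -0.91 ± 0.26 (SE; limma, adjusted p = 0.0841). Its paralogue POC1A overlapped between groups, at 73.8 and 75.7 RPKM in LP1 and LP2, against 70.9, 72.4 and 76.1 RPKM in HP1, HP2 and HP3. POC1B was at 0.212 and 0.101 times POC1A in LP1 and LP2, against 0.289, 0.319 and 0.275 times in HP1, HP2 and HP3. POC5, a centrin-binding protein of the distal lumen, had 59.0 and 59.7 RPKM in LP1 and LP2, against 62.2, 55.8 and 60.1 RPKM in HP1, HP2 and HP3. All low-performing values of POC5 lay inside the high-performing range.

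**Figure D3:**
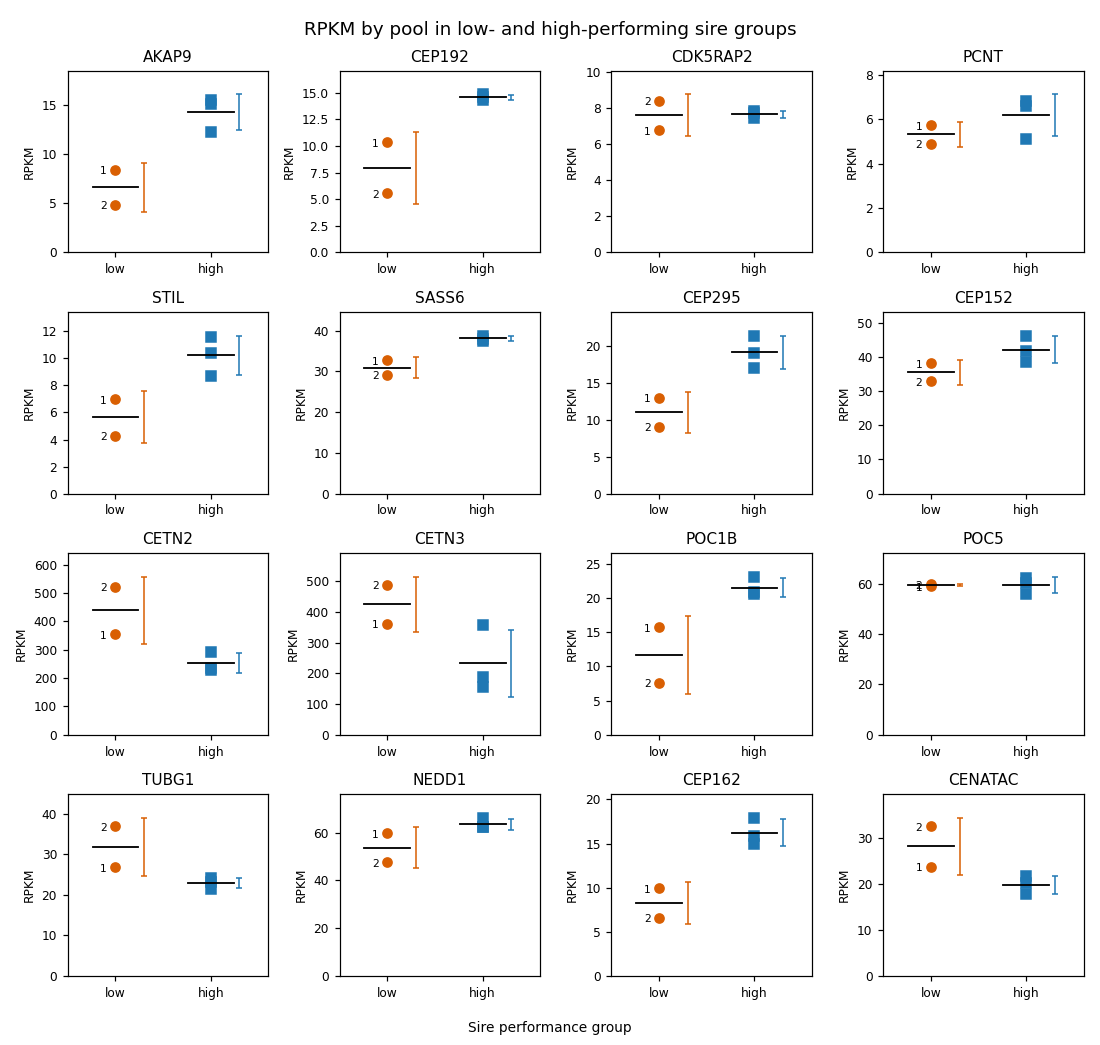
RPKM of 16 members in each pool, low-performing pools left (numbered 1 and 2) and high-performing pools right, with group means as lines and SD as bars. LP2 is the pool farthest from the high-performing mean for AKAP9, CEP192, STIL, POC1B, CEP162, CETN2 and TUBG1, while POC5 and CDK5RAP2 have near-equal group means.

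Appendage genes, whose proteins decorate the older centriole and tether it to membranes or microtubules, lay on both sides of 0, 4 of 6 below, and 3 of 6 with a trimmed-mean factor or with the trend over length removed. Of the genes for subdistal appendages, which anchor microtubules, CEP170 averaged 12.1 ± 2.56 RPKM (SD, n = 2) in low-performing and 19.3 ± 2.73 RPKM (SD, n = 3) in high-performing pools. NIN, which encodes ninein, averaged 5.12 ± 1.49 RPKM (SD, n = 2) in low-performing and 7.91 ± 1.24 RPKM (SD, n = 3) in high-performing pools. Neither gene overlapped between groups, and CEP128, of the same structure, did, at a log2 fold change of -0.023. Of the genes for distal appendages, which dock the centriole to membrane, CEP89 had 15.7 and 22.0 RPKM in LP1 and LP2, against 14.3, 12.9 and 12.6 RPKM in HP1, HP2 and HP3. It was higher without overlap, at 0.45 ± 0.17 (SE; limma, adjusted p = 0.113). CEP164, of the same appendage, had 25.5 and 37.0 RPKM in LP1 and LP2, against 23.7, 25.1 and 23.7 RPKM in HP1, HP2 and HP3. LP1 was just above HP2, so that the absence of overlap rests on a small gap, while LP2 was far higher. CEP83, the innermost distal-appendage protein, stood the other way at -0.27 ± 0.16 (SE), with overlap; 22.2% of its exonic bases are shared with TMCC3 on the same strand.

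Among 11 genes of satellites, the centriole linker and the cilium base, 7 lay below 0 and 4 above, while with the trend over length removed 4 lay below and 7 above. CEP162 (ENSBTAG00000003384, chromosome 9, positions 65172858 to 65263165), which links the centriole to the cilium's transition zone, had the smallest limma p of all members. Its RPKM was 9.91 and 6.58 in LP1 and LP2, against 15.8, 17.9 and 14.9 in HP1, HP2 and HP3. Both low-performing pools were well below the high-performing range, with a log2 fold change of -0.92 ± 0.18 (SE; limma, adjusted p = 0.0829). CEP290, also of the transition zone, overlapped, at 5.74 and 4.90 RPKM in LP1 and LP2, against 5.60, 5.58 and 5.81 RPKM in HP1, HP2 and HP3. Opposite-strand exons of C5H12orf29 cover 13.3% of its length.

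PCM1, the organiser of centriolar satellites, had 4.96 and 4.27 RPKM in LP1 and LP2, against 6.32, 6.36 and 5.01 RPKM in HP1, HP2 and HP3. LP1 was just under HP3, and its log2 fold change was -0.29 ± 0.15 (SE; limma, adjusted p = 0.201). The genes for the linker that holds paired centrioles together differed in sign, CEP68 at -0.61 ± 0.20 (SE) and CEP250 at 0.19 ± 0.14 (SE). CEP72, a satellite protein, averaged 38.0 ± 0.33 RPKM (SD, n = 2) in low-performing and 31.3 ± 2.51 RPKM (SD, n = 3) in high-performing pools.

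The remaining 13 members have mixed roles. CEP350, which anchors microtubules at the centriole with its partner CEP43, had 15.2 and 9.89 RPKM in LP1 and LP2, against 19.7, 21.5 and 21.4 RPKM in HP1, HP2 and HP3. Its log2 fold change was -0.72 ± 0.19 (SE; limma, adjusted p = 0.0829), without overlap. CEP43 itself was at 0.013 ± 0.12 (SE). CEP55, which acts at the midbody when daughter cells separate, had 27.1 and 23.0 RPKM in LP1 and LP2, against 27.9, 28.2 and 29.2 RPKM in HP1, HP2 and HP3. LP1 was close to HP1, and the log2 fold change was -0.18 ± 0.13 (SE; limma, adjusted p = 0.340). CENATAC, a factor for splicing of the rare minor introns, had 23.8 and 32.5 RPKM in LP1 and LP2, against 21.6, 17.7 and 20.2 RPKM in HP1, HP2 and HP3. It was higher without overlap, at 0.47 ± 0.17 (SE; limma, adjusted p = 0.109).

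Counted over the 54 tested members, both low-performing pools were below all high-performing pools for 23, or 42.6%, against 29.3% of all genes tested. They were above for 12, or 22.2%, against 29.4% of all genes. With quantile normalization 27 were below, against 33.3% of all genes, and 8 above, against 26.3%. With each pool's trend over gene length removed 15 were below, against 21.7% of all genes, and 17 above, against 31.2%. The share of members with a log2 fold change below 0 was 66.7%, against 53.3% of all genes tested.

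LP2 was farther from the high-performing mean than LP1 for 47 of the 54 members, 87.0%, and for 83.8% of all genes tested. Relative to the high-performing mean, the median of the members on the log2 scale was -0.061 in LP1 and -0.28 in LP2. The same median ran from -0.023 to 0.025 over HP1, HP2 and HP3. In 46 of the 54 members LP1 and LP2 lay on the same side of the high-performing mean, 85.2%, against 82.5% of all genes. The members' median log2 fold change was -0.28 without LP1 and -0.061 without LP2. Without LP2, AKAP9 was at -0.69, CEP192 at -0.46, POC1B at -0.43, CETN2 at 0.50 and CETN3 at 0.73.

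**Figure D4:**
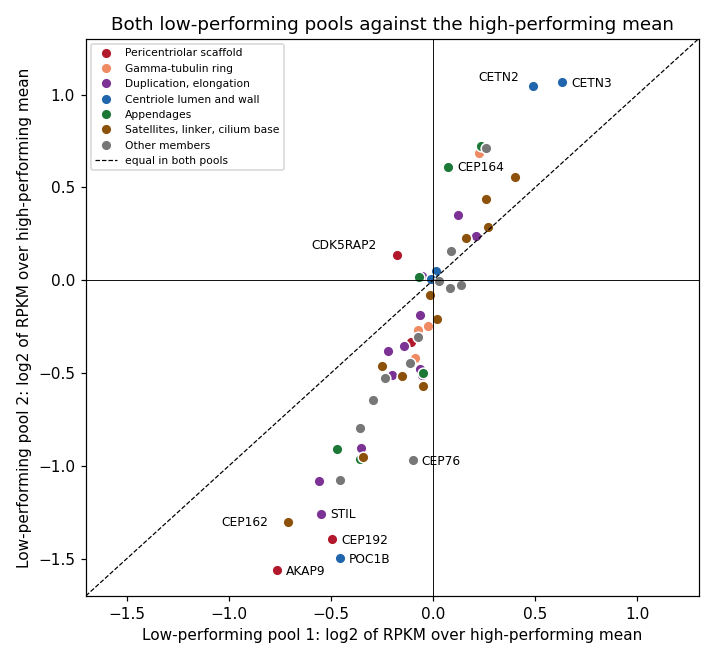
log2 of RPKM over the high-performing mean for the 54 tested members, LP1 on the horizontal and LP2 on the vertical axis, with a dashed line where both are equal. Most members lie at the lower left or upper right, on the same side of 0 in both pools, and 47 of 54 are farther from 0 in LP2 than in LP1.

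Gene length moved with the difference, in the members as in all genes. Across the 54 members, Spearman's rho between log2 fold change and length was -0.60, against -0.52 across all 12448 genes; genes of the same libraries are not independent points. Of the 12 members over 6000 bases, 8 were lower without overlap, and 67.0% of all genes of that length were. The 12 had a median log2 fold change of -0.47, against -0.32 for all genes of that length. At the other end, 7 of the 11 members of up to 2000 bases were higher without overlap, against 49.9% of all such genes. Their median was 0.27, against 0.24 for all genes of that length.

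Some members, named after their values were seen, lay away from the median of their length class, whose spread is not given. Their log2 fold change minus the median of all genes in the same length class was -0.86 for POC1B (over 2000 and up to 3000 bases), -0.72 for AKAP9 (over 6000 bases) and -0.66 for CEP162 (over 4000 and up to 6000 bases). It was 0.70 for CETN3 and 0.54 for CETN2, both of up to 2000 bases. CEP164, at 0.65 above the median for its length, and CEP250, at 0.50 above, were long genes that did not share the low values of their class. With the trend over length removed, the members' median was -8.8e-04, while POC1B was at -0.78, CEP162 at -0.67, AKAP9 at -0.59, STIL at -0.52, CETN3 at 0.62 and CETN2 at 0.49. CDK5RAP2 at 0.32 and PCNT at 0.23 then stood above 0.

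**Figure D5:**
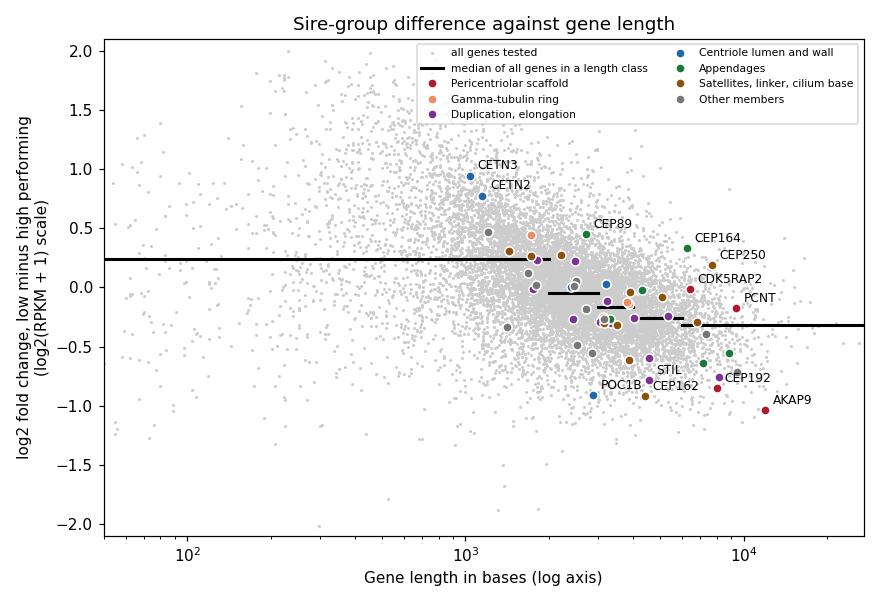
log2 fold change, low-performing minus high-performing, against gene length on a log axis, with all 12448 tested genes in grey, medians of 5 length classes as black lines and members coloured by role. The grey cloud slopes down with length; AKAP9, CEP162 and POC1B lie below the line of their class, and CETN2, CETN3 and CEP164 above it.

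Other genes of the pathway were read from a list of 43 names, of which 41 were matched and 39 tested. None passed limma adjusted over all genes. Their median log2 fold change was -0.06, with 24 below 0 and 15 above. Without overlap between groups 10 of the 39 were lower, against 29.3% of all genes tested, and 6 were higher, against 29.4%. CENPJ, which sets centriole length, had 35.0 and 26.9 RPKM in LP1 and LP2, against 42.1, 43.3 and 37.8 RPKM in HP1, HP2 and HP3. PLK4, the kinase that triggers duplication, had 3.48 and 2.67 RPKM in LP1 and LP2, against 3.33, 3.62 and 3.38 RPKM in HP1, HP2 and HP3, with overlap. AURKA, the mitotic kinase that CEP192 binds, had 2297 and 3160 RPKM in LP1 and LP2, against 1915, 1750 and 2077 RPKM in HP1, HP2 and HP3. HAUS6, of the augmin complex that branches spindle microtubules, had 17.3 and 13.7 RPKM in LP1 and LP2, against 21.9, 24.2 and 22.3 RPKM in HP1, HP2 and HP3. These 4 were chosen after their values were seen.

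Reads in genes, as recovered from RPKM, numbered 98684834 and 93659589 in LP1 and LP2, against 113100809, 67248924 and 90237317 in HP1, HP2 and HP3. A gene of 1 kb with 3 reads, the limit that a count of 0 allows, would be at 0.0265 to 0.0446 RPKM by counting error alone. Oocyte and cleavage markers were abundant, with all 9 tested and 6 higher in low-performing pools without overlap, against 29.4% of all genes. Their summed level was 16962 to 22770 RPKM in low-performing and 9887 to 13988 RPKM in high-performing pools. Most of it was BTG4, without which it was 5146 to 5827 RPKM in low-performing and 3866 to 4631 RPKM in high-performing pools. The 10 cumulus and granulosa markers summed to 178 to 185 RPKM in low-performing and 178 to 203 RPKM in high-performing pools; LHCGR had 2 reads in each low-performing pool and 0 in the 3 high-performing pools. Most of that sum was STAR, without which it was 19.7 to 25.9 RPKM in low-performing and 27.1 to 32.5 RPKM in high-performing pools. Of the 4 cumulus markers tested, HAS2 and INHBA were lower without overlap, against 29.3% of all genes, and the median log2 fold change was -0.20. Of 10 sperm and testis markers 1 passed the filter, PRM2 and TNP1 were at 0 in all 5 pools, and sums were 1.91 to 2.31 RPKM in low-performing and 1.25 to 1.70 RPKM in high-performing pools. The 7 matched blood markers, with HBB at 0, summed to 17.5 to 19.7 RPKM in low-performing and 16.4 to 19.0 RPKM in high-performing pools. The part of the oocyte, cumulus and sperm marker differences in the members' values was not tested.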

How the data were processed

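The members and gene lists were chosen with earlier results of these data known. RNA of 5 embryo pools was extracted with a micro-scale column kit and made into stranded mRNA libraries, per the labels' protocols. The build ARS-UCD1.2 and the tools featureCounts, edgeR and FastQC are named in the submitters' processing notes. For aligner, tool versions and strand setting, nothing is given in the sources used here. Deposited by the authors were RPKM per pool, log2 fold changes, mean log2 CPM, a likelihood ratio score, p-values and FDR, per the file headers. Reads in genes and reads per gene were recovered from RPKM. For each pool a total of reads was fitted from the values of RPKM times length themselves. Scaled by that total, RPKM times length came to whole reads for 100% of values within a tolerance of 0.0001.

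Sire groups were compared on log2(RPKM + 1), a scale that understates changes of low genes, by limma 3.58.1 under R 4.3.3 with its prior variance trended on mean level, for 12448 genes with RPKM of at least 1 in at least 2 pools, two-sided, with Benjamini-Hochberg adjustment over all genes at 0.05. Other settings tried were a pseudocount of 0.1 or 0.5, no filter, a mean RPKM of at least 5, quantile normalization, a trimmed-mean factor, removal of a loess trend over length (span 0.5), limma voom on recovered reads, the replicate number as a block, and each pool left out. Values by pool were given for the 5 members with the smallest p in each direction, the 5 most abundant and a fixed set; others were named after their values were seen. Figures used Python 3.11.15 and matplotlib 3.10.9.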

Additional observations from a re-analysis of the deposited data

How the results depend on the processing

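No member passed limma at an adjusted p under 0.05 with either pseudocount, either filter, quantile normalization or the trimmed-mean factor. None passed with the length trend removed or with limma voom on recovered reads. In each of these fits 0% of all genes tested passed. Over the fits that left out 1 pool each, the count of members that passed ran from 0 to 28, members at an unadjusted p under 0.05 from 1 to 7 higher and from 10 to 25 lower, and the median log2 fold change from -0.28 to -0.061. The upper end of each count came from the fit without LP1, where LP2 was the lone low-performing pool. Many genes outside the members passed in that fit too, as given above, so its counts are not specific to centrosome genes. No share of all genes is given for the unadjusted cut in these fits. With the length trend removed, 15 members were lower without overlap, against 21.7% of all genes, and the members' median was -8.8e-04. Of the 54 members, 38 kept their sign in every alternative, and the other 16, with log2 fold changes between -0.29 and 0.058, changed it in at least 1. The sign changed for 11 with the length trend removed, 5 with quantile normalization, 3 with the trimmed-mean factor, 1 with the replicate block and at most 6 without 1 pool. With quantile normalization POC1A was at -0.053, POC5 at -0.064, CEP43 at -0.057 and CDK5RAP2 at 0.0043, and with the trimmed-mean factor CEP57 was at 0.019, CDK5RAP2 at 0.013 and CEP128 at 0.0073. With the length trend removed CEP152 was at 0.054, PCM1 at 0.055, CDK5RAP2 at 0.32, PCNT at 0.23, CEP128 at 0.22, CEP290 at 0.21, TUBGCP3 at 0.083 and TUBGCP2 at 0.072. Over the fits without 1 pool, CEP57 ran from -0.077 to 0.025, CDK5RAP2 from -0.15 to 0.12 and POC5 from -0.042 to 0.035. The cause was not tested; the length alternative by construction takes out what follows gene length.

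With the replicate number as a block, 5 members passed limma at an adjusted p under 0.05: AKAP9, CEP162, POC1B, STIL and CEP192. They are 9.26% of the members, against 833 genes, or 6.69%, of all genes tested. HP3 shares its number with no low-performing pool, so it adds nothing to the group difference in that fit. AKAP9 was at -1.14 both with the block and without HP3. The block also leaves very little spread between pools to estimate. At an unadjusted p under 0.05, 2 members were higher and 9 lower, with no share of all genes given. The pools share only a number. Across 12448 genes, deviations from the group means correlated at -0.48 for LP1 with HP1 and 0.48 for LP2 with HP1. They correlated at -0.26 for LP2 with HP2 and 0.26 for LP1 with HP2. With 2 low-performing pools such values mirror each other by construction, so they cannot decide whether the numbers pair the pools. With 2 and 3 pools a group the number of pools limits the precision, and for CETN1, with 6 to 20 reads a pool, the depth does too.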
